A study of Mus musculus with 4 samples.

Results

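The genes described here are the 3 TGF-beta ligands (Tgfb1, Tgfb2, Tgfb3), the 4 latent TGF-beta binding proteins (Ltbp1, Ltbp2, Ltbp3, Ltbp4) and the 3 receptors (Tgfbr1, Tgfbr2, Tgfbr3) of the mouse. They were chosen by name and not by a rule on their values, but with earlier results of these data known. They are 10 of the 24421 genes in the count table. All 10 passed the filter on low counts, which kept 13103 genes. RNA came from the superficial zone of the medial femoral condyle cartilage of C57BL/6J mice, taken 8 weeks after an operation. In the DMM knees the medial meniscus had been destabilised, which leads to osteoarthritis, and the sham knees had the control operation. There were 2 DMM and 2 sham libraries, 1 of each from mouse M04 and from mouse M05. The sample labels give both mice as wild type, the series' design text marks M05 as KO and names no gene, and the age is not given in the sources used here. M05 and M04 are therefore compared as 2 animals.

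TGF-beta is secreted in an inactive form. Its propeptide stays wrapped around the ligand and is bonded to a latent TGF-beta binding protein, which anchors the complex in the matrix until integrins, proteases or other factors release the ligand. Free ligand binds the type II receptor Tgfbr2, which recruits and phosphorylates the type I receptor Tgfbr1, and SMAD2 and SMAD3 then carry the signal to the nucleus. In articular cartilage the pathway is known to maintain matrix production and to restrain chondrocyte hypertrophy, while in bone and synovium excess signalling is linked to osteophytes and fibrosis.

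The libraries held 12712425 to 19336628 counts. Haemoglobin transcripts made up 25.7% and 29.4% of the counts in the DMM libraries, against 30.3% and 35.3% in the sham libraries, so blood and marrow RNA was a large part of each. All 12 cartilage markers, Col2a1 and Acan among them, were found with counts above 0 in every library. Their summed level was 6640 and 4230 CPM (counts scaled to library size) in the DMM libraries of M04 and M05, against 5290 and 1150 CPM in their sham libraries. The sham library of M05 stood apart from the other 3 by this low cartilage level. In bulk tissue, fewer cells of a type and less RNA per cell cannot be told apart.

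Promoters of the members are shown for 4 genes: Ltbp3, the member that rose in DMM knees, Ltbp4, whose pattern over the libraries was near that of Ltbp3, Ltbp2, which was lower in M05, and Tgfb1, the most abundant member. They are RefSeq sequences on GRCm38.p6, whereas the reads were placed on GRCm39, so their coordinates hold for GRCm38.p6 only. Each runs from 250 bases before to 50 bases after a gene start. The Ltbp3 window is at chr19:5740650-5740949 (plus strand), that of Ltbp4 at chr7:27337563-27337862 (minus strand), that of Ltbp2 at chr12:84876442-84876741 (minus strand) and that of Tgfb1 at chr7:25686752-25687051 (plus strand). Capitals mark matches, on either strand, to the GC box GGGCGG, the AP-1 motif TGANTCA, the SMAD motif CAGACA and the TATA box TATAAA.
Ltbp3: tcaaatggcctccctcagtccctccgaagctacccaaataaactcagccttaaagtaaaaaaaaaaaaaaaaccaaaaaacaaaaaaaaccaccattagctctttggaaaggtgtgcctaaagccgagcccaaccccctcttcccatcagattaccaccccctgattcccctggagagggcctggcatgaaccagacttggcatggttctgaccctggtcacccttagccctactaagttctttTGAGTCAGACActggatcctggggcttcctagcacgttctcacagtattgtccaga
Ltbp4: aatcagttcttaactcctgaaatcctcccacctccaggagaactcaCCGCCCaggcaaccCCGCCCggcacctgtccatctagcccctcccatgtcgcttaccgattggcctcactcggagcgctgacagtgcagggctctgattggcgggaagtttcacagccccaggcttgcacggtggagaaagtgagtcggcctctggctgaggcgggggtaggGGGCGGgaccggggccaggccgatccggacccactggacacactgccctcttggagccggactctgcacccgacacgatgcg
Ltbp2: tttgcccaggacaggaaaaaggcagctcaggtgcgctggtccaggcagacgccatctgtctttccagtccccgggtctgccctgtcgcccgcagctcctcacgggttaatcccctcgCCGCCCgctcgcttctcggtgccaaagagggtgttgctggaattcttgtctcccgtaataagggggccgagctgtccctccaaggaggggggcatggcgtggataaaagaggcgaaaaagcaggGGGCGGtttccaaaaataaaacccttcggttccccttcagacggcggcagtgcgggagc
Tgfb1: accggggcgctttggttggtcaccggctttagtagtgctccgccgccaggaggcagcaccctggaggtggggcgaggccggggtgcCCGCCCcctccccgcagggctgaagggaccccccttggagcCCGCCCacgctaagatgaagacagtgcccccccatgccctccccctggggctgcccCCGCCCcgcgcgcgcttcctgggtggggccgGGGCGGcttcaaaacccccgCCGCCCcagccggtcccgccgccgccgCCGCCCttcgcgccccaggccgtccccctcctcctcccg

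The Ltbp3 window holds 1 AP-1 and 1 SMAD match, which share bases, and no GC box. The Ltbp4, Ltbp2 and Tgfb1 windows shown hold 3, 2 and 6 GC boxes and none of the other motifs. Ltbp4 has other entries, not shown, with 7 and 9 GC boxes at a GC content of 80.3% and 81.3%. Their windows overlap each other and are counted separately below. The GC content of the windows shown was 48.0% for Ltbp3, 64.3% for Ltbp4, 61.0% for Ltbp2 and 77.0% for Tgfb1, beside a median of 52.7% over all windows of this length. The table of 32851 windows has 12 entries for 8 of the 10 members, some with several starts, and none for Tgfb3 and Tgfbr3. Of these 12, 6 hold a GC box, 4 the SMAD motif, 1 the AP-1 motif (Ltbp3) and 1 the TATA box (Tgfb2). Over all windows the shares with a match were 35.7% for the GC box, 21% for the SMAD motif, 7.81% for the AP-1 motif and 13.6% for the TATA box. These are matches of letters and describe the windows only.

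Tgfb1 was by far the most abundant member, and the type II receptor was the most abundant receptor. Levels of different genes were compared as FPKM, the authors' values scaled for gene length and depth. Tgfb1 averaged 153 ± 13.7 FPKM over the 4 libraries (SD, n = 4), higher than 98.0% of the listed genes. Tgfbr2 followed with 10.8 ± 1.37 FPKM and Ltbp3 with 6.36 ± 1.90 FPKM (SD, n = 4 each). Ltbp1 averaged 3.96, Tgfb3 3.04, Ltbp4 2.81, Tgfbr3 2.59, Ltbp2 2.48 and Tgfbr1 2.20 FPKM. From Ltbp3 down to Tgfbr1, the ranges of neighbours in this order overlapped. Tgfb2 was lowest, with 0.273 to 1.38 FPKM, and its highest library lay just below the lowest of Tgfbr1 at 1.41 FPKM.

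**Figure D1:**
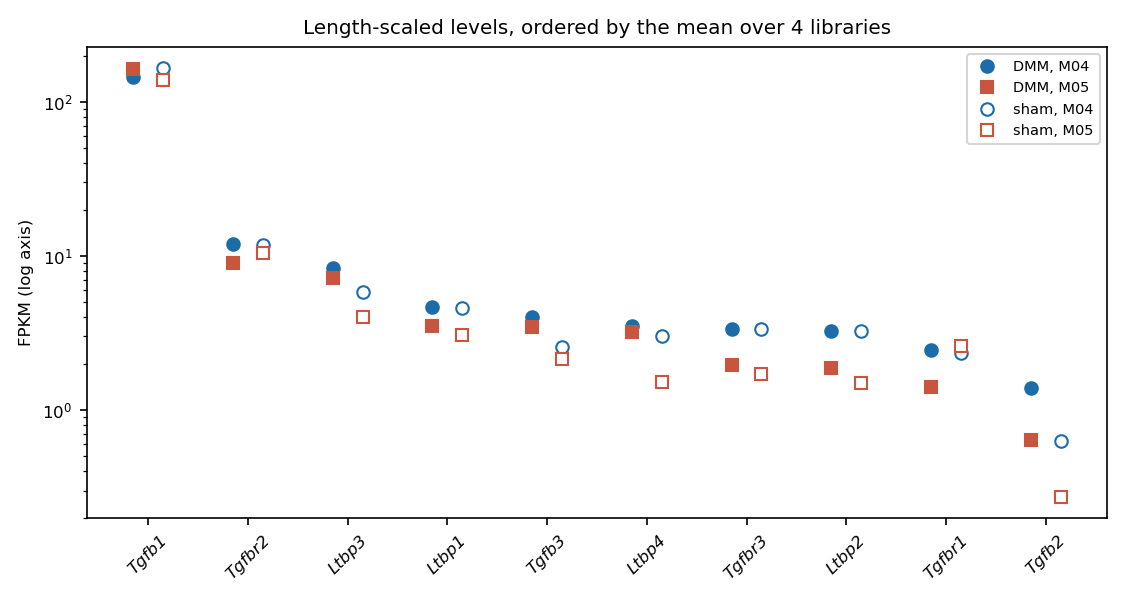
Level of each gene in each library as FPKM on a log axis, ordered by the mean over the 4 libraries. Filled points are DMM and open points sham knees, circles are M04 and squares M05. Tgfb1 lies between 138 and 165 FPKM, the other genes below 12 FPKM.

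The ligand pool was nearly all Tgfb1, and the minor ligands held a larger share of it in DMM knees. Tgfb1 made up 96.4% and 97.6% of the summed ligand FPKM in the DMM libraries of M04 and M05, against 98.1% and 98.3% in their sham libraries. Tgfb3 made up 2.66% and 2.04% in the DMM libraries, against 1.52% in each sham library. Tgfb2 made up 0.913% and 0.381% in the DMM libraries, against 0.373% and 0.194% in the sham libraries. For Tgfb1 and Tgfb3 the DMM and sham shares did not overlap, and for Tgfb2 the DMM library of M05 was just above the sham library of M04. These shares compare genes within a library and do not depend on how libraries are scaled to each other. They have 2 libraries a group and were not tested.

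Among the binding proteins, Ltbp3 was the main transcript in every library by FPKM. In CPM, which is not scaled for gene length, Ltbp1 was above Ltbp3 in the sham library of M04 (31.6 against 29.4). In the sham library of M05 both had 20.4 CPM. Ltbp3 held 42.3% and 45.7% of the summed binding protein FPKM in the DMM libraries of M04 and M05, against 34.7% and 39.8% in the sham libraries. Ltbp1 held 23.6% and 22% in DMM knees, against 27.7% and 30.4% in sham knees. The sum of the 4 binding proteins was 19.9 and 15.8 FPKM in DMM knees, against 16.7 and 10.1 FPKM in sham knees. Set against the ligand sum, the binding proteins stood at a ratio of 0.132 and 0.0940 in DMM knees, against 0.0989 and 0.0718 in sham knees. This ratio was higher in the DMM than in the sham knee of each mouse, but the groups overlapped.

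The first comparison asked how these genes differ between DMM and sham knees. Ltbp3 rose, and it was the only member to pass the threshold of an adjusted p of 0.05. Its binding protein ties the latent complex of every TGF-beta isoform to the matrix. Ltbp3 had 42.1 CPM in M04 and 36.3 CPM in M05 in DMM knees, against 29.4 and 20.4 CPM in sham knees. Both DMM libraries lay above both sham libraries. The log2 fold change was 0.67 (SE 0.18), a fold of 1.59 (95% interval from the SE 1.25 to 2.03), with an adjusted p of 0.0327 by edgeR's quasi-likelihood test with the mouse as a block. The counts behind it were 630 and 441.5 in DMM libraries, against 397 and 348 in sham libraries. Without the sham library of M05 the log2 fold change was 0.41 (adjusted p = 1.0, edgeR without the mouse term), and without that of M04 it was 0.94 (adjusted p = 0.0266). The call was lost without the mouse term (0.66, adjusted p = 1.0), in DESeq2 (0.67, adjusted p = 1.0), with RLE scaling (0.67, adjusted p = 0.113) and without the haemoglobin rows (0.68, adjusted p = 0.181), while the fold change stayed near the same value. All limma fits on FPKM lost it too (0.59 to 0.68, lowest adjusted p 0.843). Over all 14 alternatives its adjusted p ranged from 0.0266 to 1.0. Of the cartilage markers, 6 of 12 were higher in DMM knees (list median 1.01), beside 0.633% of all genes. Of the fibroblast and synovium markers 2 of 8 were higher, Clec3b and Dpt (list median 0.46), and of the osteoblast and osteocyte markers 1 of 8, Ibsp (list median 0.25). Their part in the Ltbp3 difference was not tested.

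Past the threshold, 1 of the 10 members was thus higher and 0 were lower, beside 0.633% of all 13103 genes higher and 0.0153% lower. In 4 members, Tgfb2, Tgfb3, Ltbp3 and Ltbp4, both DMM libraries lay above both sham libraries in CPM, which was so for 13.2% of all genes. The same 4 members, and no other, had an unadjusted p under 0.05, which 5.20% of all genes had. The median log2 fold change of the 10 was 0.15, beside -0.01 for all genes tested. By role the median was 0.67 for the 3 ligands, 0.41 for the 4 binding proteins and -0.10 for the 3 receptors.

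**Figure D2:**
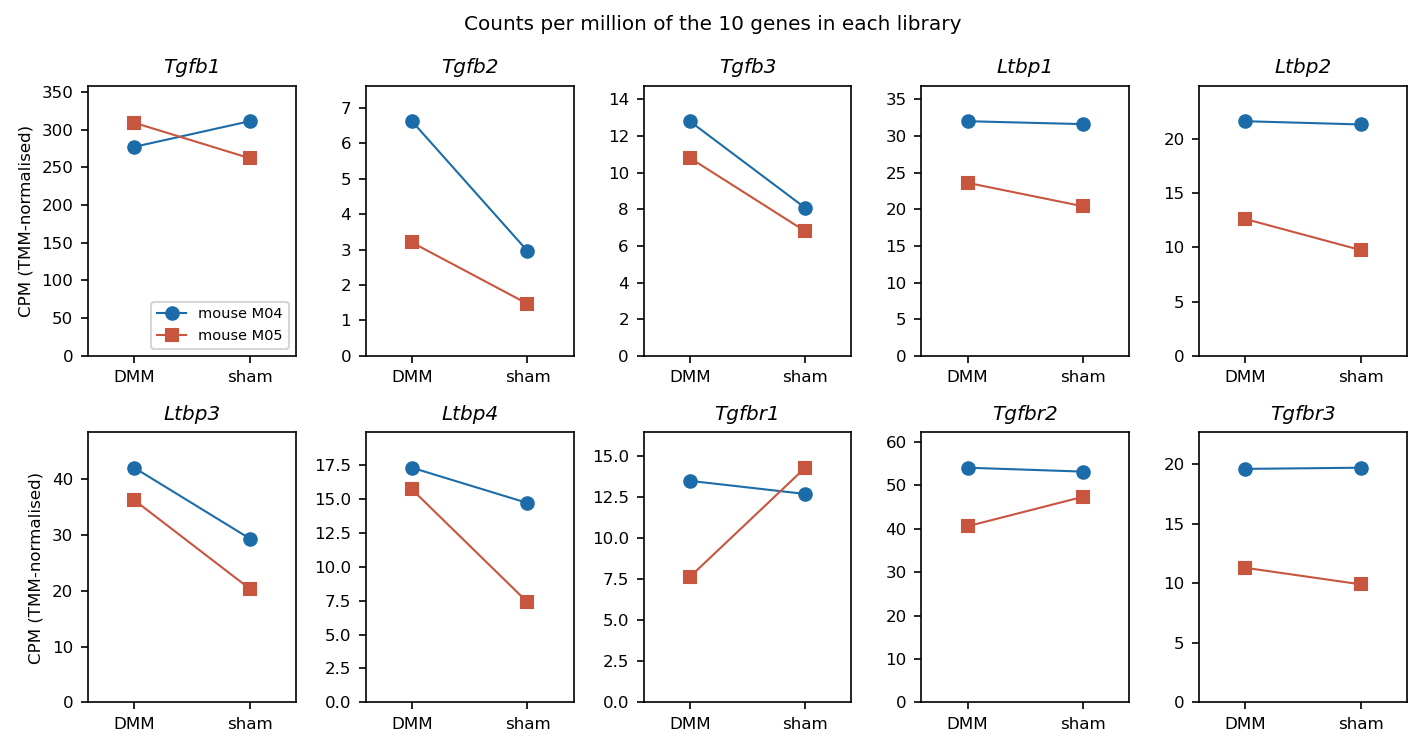
TMM-normalised CPM of each gene in the DMM and the sham knee, with a line for each mouse (circles M04, squares M05) and each y axis from 0. Tgfb2, Tgfb3, Ltbp3 and Ltbp4 are higher in both DMM libraries than in both sham libraries, while the lines of Tgfb1 and Tgfbr1 cross.

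The ligands Tgfb2 and Tgfb3 were higher in both DMM knees without passing the threshold. Tgfb2, a ligand that needs betaglycan for efficient binding to its receptor, had 6.62 and 3.20 CPM in the DMM knees of M04 and M05, against 2.96 and 1.47 CPM in the sham knees. The DMM library of M05 exceeded the sham library of M04 only slightly. The log2 fold change was 1.14 (SE 0.46, adjusted p = 0.578), and it rests on 99 and 39 counts in DMM libraries, against 40 and 25 in sham libraries. With 1 library left out this fold change ranged from 0.55 (DMM library of M04 left out) to 1.74 (sham library of M04 left out), and leaving out the sham library of M05 gave 0.73. By limma on log2(FPKM + 1) with no filter it was 0.46. Tgfb3, a ligand also known for scarless healing and palate closure, had 12.8 and 10.8 CPM in DMM knees, against 8.07 and 6.80 CPM in sham knees. Its ratios were nearly equal in the mice, 0.65 in M04 and 0.66 in M05 on the log2 scale. The fitted log2 fold change was 0.67 (SE 0.28, adjusted p = 0.640), a fold of 1.59 with an interval of 1.09 to 2.32. Ttll5 overlaps Tgfb3 on the opposite strand but shares none of its exon bases in GENCODE M21.

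Tgfb1, the main isoform of blood platelets, leukocytes and bone matrix, did not separate the groups. It had 277 and 309 CPM in the DMM knees of M04 and M05, against 311 and 262 CPM in their sham knees. The ranges overlapped. The log2 fold change was 0.04 (SE 0.15, adjusted p = 1.0), and the interval of the fold was 0.832 to 1.26. Tgfb1 was lowest in the sham library of M05. The sum of the 8 markers of megakaryocytes and platelets was lowest there too when scaled to library totals, with 1070 CPM against 1430 to 1540 CPM in the other 3 libraries (no marker at 0). This was not particular to that list. The sums of the cartilage, macrophage and monocyte, endothelial, osteoclast, fibroblast and synovium, and lymphocyte markers were lowest there as well. Those of the erythroid and skeletal muscle markers were highest there, and the osteoblast and osteocyte and the adipocyte sums were neither. On the TMM scale used for Tgfb1, some megakaryocyte and platelet markers were lower in the DMM library of M04 than in the sham library of M05. These were Ppbp (508 against 517 CPM), Gp9 (55.8 against 65.9) and Treml1 (75.6 against 86.1). The median log2 ratio of the 8 markers, DMM over sham on the TMM scale, was -0.24 in M04 and 0.29 in M05, beside -0.17 and 0.24 for Tgfb1. The 8 neutrophil and granulocyte markers had medians of -0.09 in M04 and 0.18 in M05, but their sum was highest in the sham library of M05, with 57500 CPM against 40700 to 53700 CPM in the others. Within M05 the ratios of S100a8 (-0.59), S100a9 (-0.58) and Camp (-0.25) were opposite in sign to that of Tgfb1. Those of Ltf (0.28), Ngp (0.24), Mpo (0.17), Elane (0.19) and Retnlg (0.19) had the same sign as Tgfb1. The part of blood and marrow cells in the Tgfb1 level was not tested.

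Of the other binding proteins, Ltbp4 came closest to the threshold. Ltbp4, which binds latent TGF-beta1 and takes part in elastic fibre assembly, had 17.3 and 15.7 CPM in the DMM knees of M04 and M05, against 14.7 and 7.39 CPM in the sham knees. The low value was the sham knee of M05. The log2 fold change was 0.64 (SE 0.24, adjusted p = 0.440), and without the sham library of M05 it was 0.16. Ltbp1, the first described member of the family, had 32.0 and 23.6 CPM in DMM knees, against 31.6 and 20.4 CPM in sham knees (log2 fold change 0.11, SE 0.19, adjusted p = 1.0). Ltbp2, which does not bind latent TGF-beta and associates with fibrillin microfibrils, had 21.6 and 12.6 CPM in DMM knees, against 21.3 and 9.74 CPM in sham knees (log2 fold change 0.19, SE 0.22, adjusted p = 1.0). For both genes the mice differed more than the knees. With 1 library left out the sign of either turned, to between -0.13 and -0.31, without the DMM library of M04 or the sham library of M05.

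No receptor passed the threshold. Tgfbr1, the type I receptor kinase, had 13.5 and 7.64 CPM in the DMM knees of M04 and M05, against 12.7 and 14.3 CPM in the sham knees. The DMM knee of M05 was the low library, and the other 3 were close together. The log2 fold change was -0.39 (SE 0.25, adjusted p = 1.0), with an interval of 0.539 to 1.08 for the fold. Without the DMM library of M05 it was 0.00, and without the DMM library of M04 it was -0.82. Tgfbr2, the type II receptor, had 54.1 and 40.6 CPM in DMM knees, against 53.2 and 47.4 CPM in sham knees (log2 fold change -0.10, SE 0.17, adjusted p = 1.0). Tgfbr3, or betaglycan, a co-receptor that presents ligand and can be shed, had 19.6 and 11.3 CPM in DMM knees, against 19.7 and 9.91 CPM in sham knees (log2 fold change 0.09, SE 0.23, adjusted p = 1.0). The type II to type I receptor ratio in FPKM was 4.84 and 6.38 in DMM knees, against 5.09 and 4.05 in sham knees, so the groups overlapped.

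**Figure D3:**
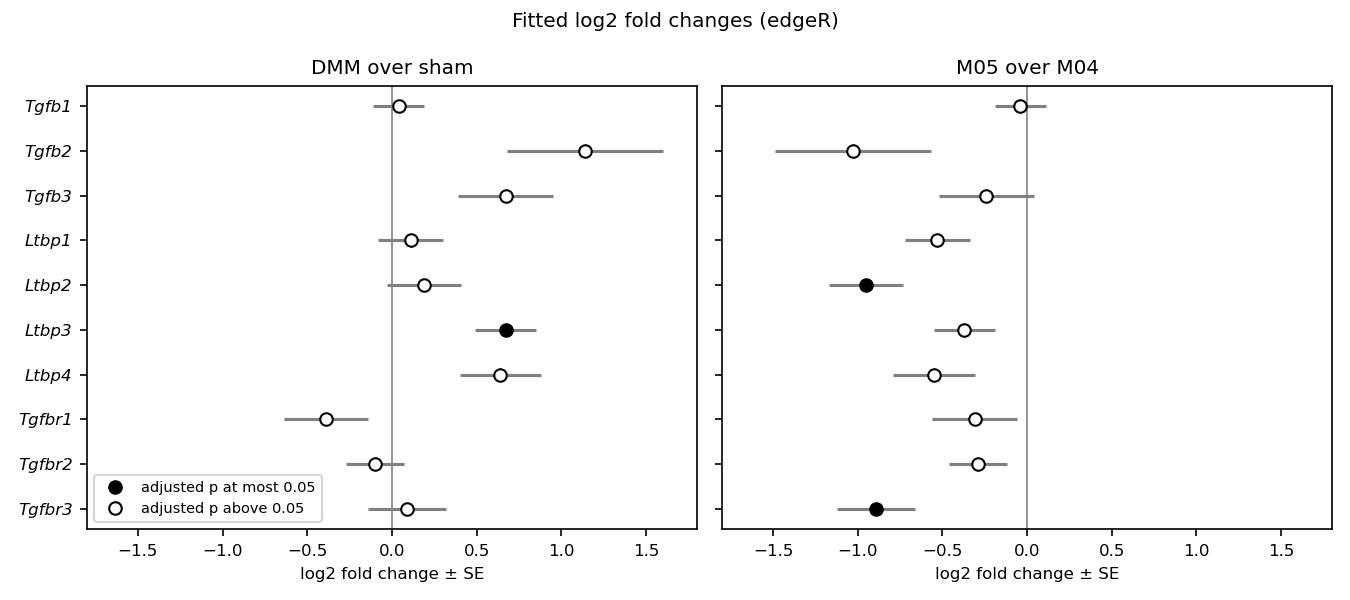
Fitted log2 fold change with its standard error for each gene, DMM over sham on the left and M05 over M04 on the right, each from 4 libraries. Filled points passed an adjusted p of 0.05: Ltbp3 at 0.67 on the left, Ltbp2 at -0.95 and Tgfbr3 at -0.89 on the right.

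Within each mouse, the DMM to sham ratio was set beside an exact 95% binomial interval, which covers counting error only and compares 2 libraries, not 2 conditions. In 6 of the 10 members the ratio was above 0 in both mice, against 23.2% of all genes. Among the 6, Ltbp1 and Ltbp2 had ratios of only 0.02 in M04, with intervals of -0.17 to 0.21 and -0.22 to 0.25. The intervals of Tgfb2, Tgfb3 and Ltbp3 lay above 0 in each mouse. For Ltbp3 the log2 ratio was 0.52 in M04 (interval 0.34 to 0.70) and 0.83 in M05 (0.62 to 1.04). For Tgfb2 it was 1.12 in M04 (0.62 to 1.73) and 1.06 in M05 (0.37 to 1.91). For Ltbp4, Tgfbr1 and Tgfb1 the intervals of the 2 mice did not overlap. The shares of all genes with such intervals, or with both intervals above 0, were not computed. Neither trait is therefore a result about these members. Ltbp4 had 0.23 in M04 (-0.05 to 0.50) and 1.07 in M05 (0.75 to 1.42). Tgfbr1 had 0.08 in M04 (-0.22 to 0.39) and -0.89 in M05 (-1.26 to -0.55). Tgfb1 had -0.17 in M04 (-0.23 to -0.11) and 0.24 in M05 (0.18 to 0.30), which are opposite in sign. A model with mouse, surgery and their interaction leaves no residual degree of freedom for 4 libraries, so whether the responses of the mice differ was not tested. The sham library of M05, with its low cartilage level, enters every M05 ratio, and its part in them was not tested.

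**Figure D4:**
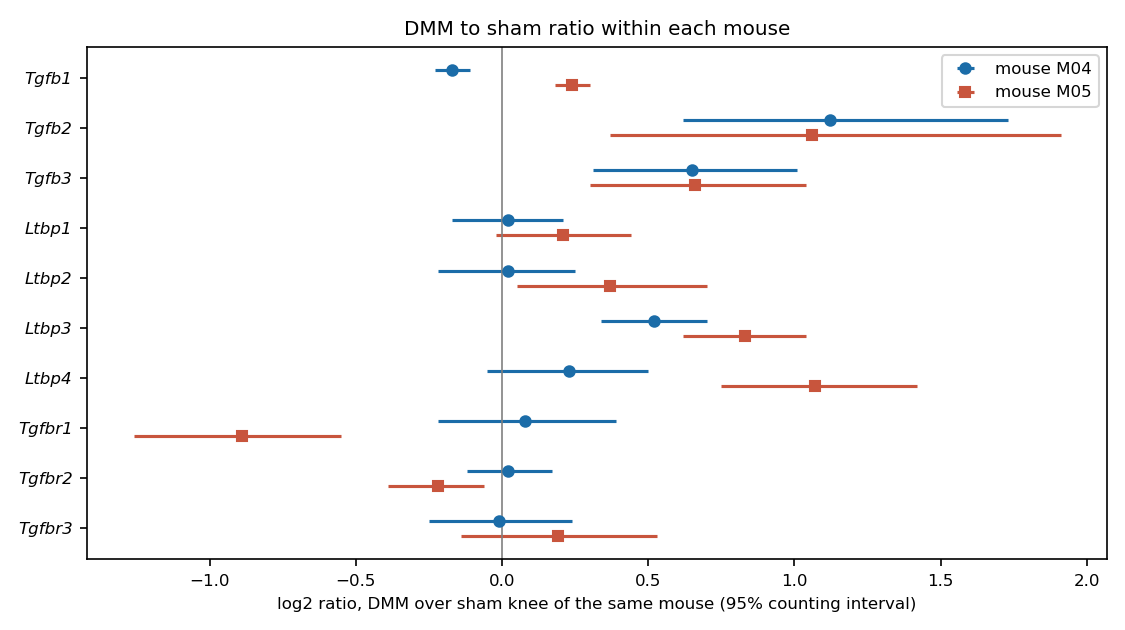
DMM to sham log2 ratio of each gene within M04 (circles) and M05 (squares), with exact 95% intervals for counting error. The intervals of the 2 mice do not overlap for Tgfb1, Ltbp4 and Tgfbr1, while the points of Tgfb3 nearly coincide at 0.65 and 0.66.

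The second comparison set M05 against M04. All 10 members had a negative log2 fold change, with a median of -0.45 beside -0.01 for all genes tested. Ltbp2 and Tgfbr3 were lower in M05 past the threshold and no member was higher, beside 1.64% of all genes lower and 0.962% higher. Ltbp2 had 12.6 CPM in the DMM and 9.74 CPM in the sham knee of M05, against 21.6 and 21.3 CPM in M04. Its log2 fold change was -0.95 (SE 0.22, adjusted p = 0.00271, edgeR). The antisense transcript D030025P21Rik shares 9.34% of the exon bases of Ltbp2 but had only 8 and 6 counts in DMM libraries, against 4 and 4.5 counts in sham libraries. Tgfbr3 had 11.3 CPM in the DMM and 9.91 CPM in the sham knee of M05, against 19.6 and 19.7 CPM in M04. Its log2 fold change was -0.89 (SE 0.23, adjusted p = 0.00968). For both genes the M05 and M04 libraries did not overlap, which also held for Ltbp1 and Tgfbr2 and for 22.8% of all genes in this direction.

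The log2 fold changes of Ltbp2 and Tgfbr3 stayed at -0.95 and -0.89 in edgeR without the surgery term, in DESeq2 and without the haemoglobin rows, while the adjusted p-values moved. Both calls were lost in edgeR without the surgery term (adjusted p = 0.114 for Ltbp2 and 0.117 for Tgfbr3) and in DESeq2 (0.277 and 0.384). The limma fits on FPKM lost both calls too, at -0.92 to -0.67 for Ltbp2 and -0.84 to -0.62 for Tgfbr3. Leaving out the DMM library of M05 kept both (0.0189 and 0.0385), and leaving out any other library lost both, with adjusted p-values of 0.148 to 0.775 in fits without the surgery term. Their log2 fold changes in these fits ranged from -1.14 to -0.76 for Ltbp2 and from -0.98 to -0.79 for Tgfbr3. Without the haemoglobin rows Ltbp2 kept its call (0.0327) and Tgfbr3 did not (0.0519). Ltbp1, at -0.53 (SE 0.19, adjusted p = 0.0993), and Ltbp4, at -0.55 (SE 0.24, adjusted p = 0.228), did not pass. Markers of several cell types differed between the mice too. Beside a share of 1.64% over all genes, 8 of 12 cartilage markers were lower in M05 (list median -1.02), and of the endothelial markers 2 of 8 were (list median -0.28). These were Cdh5, an endothelial cadherin (-0.99, adjusted p = 0.0011), and Kdr, a VEGF receptor (-0.92, adjusted p = 0.0156). Cdh5 had 10.5 CPM in the DMM and 12.2 CPM in the sham knee of M05, against 22.9 and 22.3 CPM in M04. Of the other endothelial markers, Pecam1 (-0.27), Tie1 (-0.3), Vwf (-0.16) and Stab2 (-0.44) did not pass. Tek (0.03) and Emcn (0.29) were not lower in M05. The fibroblast and synovium list had a median of -0.61 with 0 of 8 past the threshold. Of the 8 neutrophil and granulocyte markers, S100a8 (0.95, adjusted p = 0.00242) and S100a9 (0.88, adjusted p = 0.0111) were higher in M05. The part of these cells in the differences of Ltbp2 and Tgfbr3 was not tested. Fbn1, the fibrillin to which the binding proteins attach, was also lower in M05 (-0.89, SE 0.23, adjusted p = 0.0101).

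Other genes of the pathway were taken from 6 lists with 64 genes, of which 59 were tested. 8 were higher in DMM knees and none was lower, beside 0.633% of all genes higher and 0.0153% lower. The median log2 fold change of the 59 was 0.16, beside -0.01 for all genes. The 8 were in 2 lists. Of the 4 extracellular proteoglycans that bind TGF-beta, Dcn (0.96, SE 0.15, adjusted p = 5.37e-07) and Fmod (1.30, SE 0.16, adjusted p = 3.28e-10) rose, and Bgn had 0.48 (adjusted p = 0.286). Of 15 genes known to respond to TGF-beta in various cells, Col3a1 (2.08), Timp1 (1.12), Comp (1.02), Prg4 (0.74), Fn1 (0.74) and Ctgf (0.58) rose, while Lox, a collagen cross-linking enzyme, had 0.01. Many of these genes are also cartilage or fibrous matrix genes, and earlier results on these libraries had already shown their rise, so the count is no independent evidence about the pathway. With DESeq2 and with RLE scaling Col3a1, Dcn, Fn1 and Timp1 passed, while Fmod, Comp, Prg4 and Ctgf did not (adjusted p of 0.197 to 1.0), and without the mouse term 0 of the 59 passed. Leaving out the sham library of M05 took the log2 fold change of Prg4 to -0.11, of Ctgf to 0.05, of Fn1 to 0.24, of Comp to 0.36 and of Fmod to 0.49, against 0.72 for Dcn, 1.85 for Col3a1 and 1.32 for Timp1. Without that library 0 of the 59 passed, without the DMM library of M04 again 0, and without the DMM library of M05 2 passed, all in fits with no mouse term.

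The signalling genes inside the cell did not pass. None of the 14 SMADs and cofactors passed, from Smurf2, a ubiquitin ligase that targets the receptor (-0.30, adjusted p = 1.0), to Tgif1, a SMAD corepressor (0.30, adjusted p = 1.0), among those averaging 5 CPM or more. None of the 12 genes for activation and storage of the latent complex passed. Among those averaging 5 CPM or more they ran from Furin, the protease that cuts the propeptide (-0.22, adjusted p = 1.0), to Mmp14, a membrane metalloprotease (0.50, adjusted p = 0.190). Below that level, Fbn2 had -0.54 at a mean of 0.974 CPM. None of the 6 co-receptors and decoys passed, from Tgfbrap1 (-0.13) to the decoy receptor Bambi (0.44), with an adjusted p of 1.0 for both. None of the 8 activin and growth differentiation factor genes passed. Only the receptor Acvr1b (0.23) and the ligand Gdf10 (0.47) averaged 5 CPM or more, again with an adjusted p of 1.0. The others ran from Inhba (-0.33) to Fst (0.55). In M05 against M04, 9 of the 59 were lower and none was higher, beside 1.64% of all genes lower and 0.962% higher. Furin (-0.72, SE 0.17, adjusted p = 0.00393) was among the 9.

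**Figure D5:**
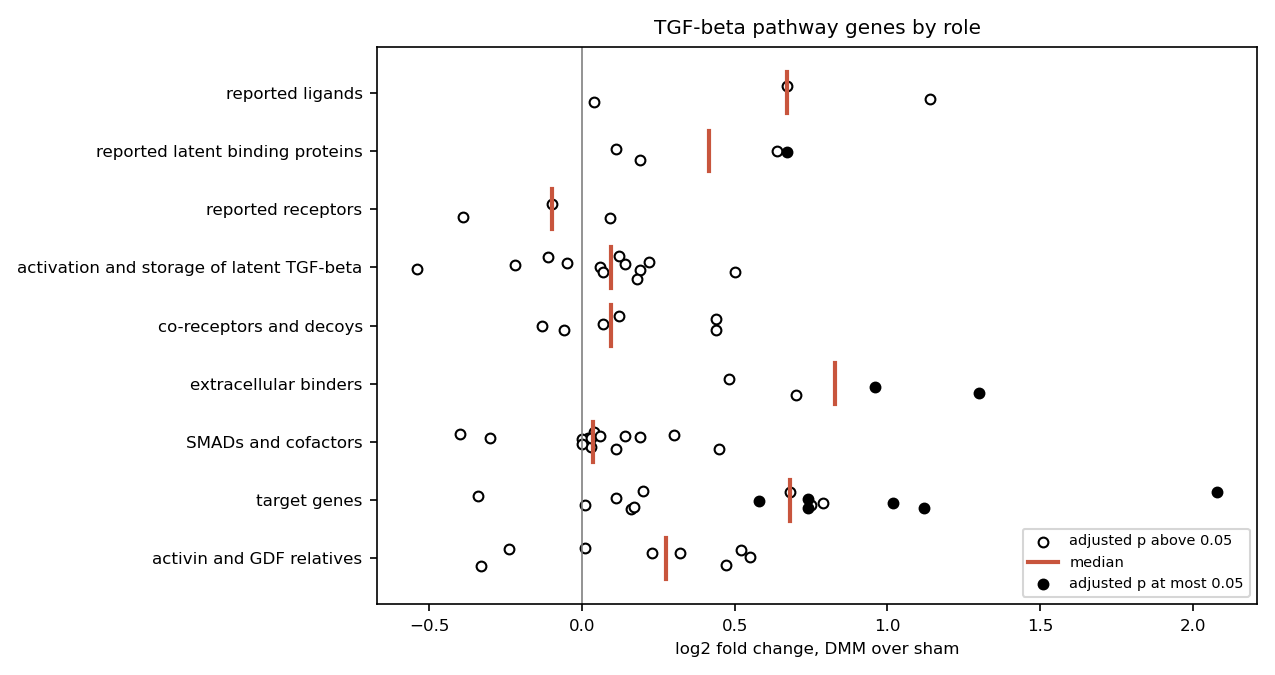
Log2 fold change, DMM over sham, of each tested gene in the lists by role, with the described genes in the top 3 rows. Filled points passed an adjusted p of 0.05 and red bars are list medians. Filled points other than Ltbp3 are found among the extracellular binders and the target genes, with medians of 0.83 and 0.68.

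The genes with the most similar pattern were sought for the most abundant member of each role, by the root mean square difference of log2 CPM centred on each gene's mean over the 4 libraries, among the 7468 genes that averaged 10 CPM or more. For Ltbp3 these were P3h1 (0.0561), Plod2 (0.0564) and Enpp1 (0.0641). P3h1 had 26.5 and 23.1 CPM in DMM knees, against 17.0 and 12.8 CPM in sham knees. For Tgfb1 they were Tmbim1 (0.00616), Exoc6b (0.00765) and Vps25 (0.00980), and for Tgfbr2 they were Git1 (0.0103), Iars (0.0119) and Ppp6r3 (0.0140). Between members, Ltbp2 and Tgfbr3 were the nearest pair (0.0718), followed by Tgfb3 and Ltbp3 (0.10) and by Ltbp3 and Ltbp4 (0.165). With 4 libraries, many genes come close to any pattern, and the distances describe these libraries only.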

How the data were processed

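Poly(A) RNA of 4 libraries was sequenced as single-end reads of 100 bases, per the labels' protocols, and the submitters' processing notes name the genome build GRCm39 (mm39). Aligner, counting method and use of strand: not given in the sources used here. The authors deposited estimated counts per gene, not all whole, and FPKM values. The second copy of each count column equalled the first in all 24421 rows and was ignored. Groups and mice were taken from the sample titles, which the columns match. The description texts of both sham samples mention a DMM knee, against their titles and treatment field.

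Estimated counts were rounded and tested in edgeR 4.0.16 (R 4.3.3): filterByExpr, TMM scaling, a robust quasi-likelihood fit with mouse and surgery as terms, and Benjamini-Hochberg adjustment over the 13103 genes tested, threshold 0.05. CPM values are TMM-normalised, except for the cell marker sums, which use library totals. The SE was derived from the fold change and the F statistic, and 95% intervals of a fold are 1.96 SE either side. Each mouse gave both knees, per the labels, which is why it is a block, and same-mouse deviations correlated at 0.126. With 1 residual degree of freedom, infinite prior degrees of freedom were estimated for 83.0% of genes, among them 8 of the members, so the spread came from the trend across genes, and p-values do not measure how far the 2 mice differ. Ratios within a mouse used a prior count of 2. Alternatives used DESeq2 1.42.0 without independent filtering, limma 3.58.1 on log2(FPKM + 1) with a mean of at least 1 FPKM, or other scalings, filters and sets of libraries. The members and lists were chosen with earlier results of these data known. Named pathway genes are those past the threshold and, in each list, the largest and smallest fold change at a mean of at least 5 CPM. Fbn1, Ttll5, D030025P21Rik, the closest member pairs and the promoters shown were picked with their values in view. Of the listed markers, Ahsp and Trbc2 matched no row.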

Additional observations from a re-analysis of the deposited data

Results flagged for a closer look

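Tgfb1 went opposite ways in the 2 mice. The DMM to sham log2 ratio of Tgfb1 was 0.24 in M05, with an exact counting interval of 0.18 to 0.30. In M04 it was -0.17, with an interval of -0.23 to -0.11. With FPKM + 0.1 in place of CPM the ratios were 0.25 in M05 and -0.19 in M04. Each mouse gave 1 pair of knees, and the difference was not tested against variation between animals.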

How the results depend on the processing

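Each comparison was recomputed under 14 alternatives, 4 of which leave out 1 library and have no block, and the cause of the changes was not tested. The call of Ltbp3 in DMM knees held with no filter on low counts, with a mean of at least 5 CPM, with no robust moderation and without the sham library of M04. In DMM against sham, 85 genes, 1 member and 8 pathway genes passed. With no replicate block 0, 0 and 0 passed in this order (322 genes at an unadjusted p under 0.05), with DESeq2 13, 0 and 4, with RLE scaling 35, 0 and 4, and without the haemoglobin rows 23, 0 and 3. The 3 limma fits on FPKM gave 1, 0 and 0 each. Leaving out 1 library gave 0 to 121 genes, 0 to 1 members and 0 to 8 pathway genes, with 0 genes without the DMM library of M04 (492 at an unadjusted p under 0.05). In M05 against M04, 341 genes, 2 members and 9 pathway genes passed. With no replicate block 0, 0 and 0 passed (1819 genes at an unadjusted p under 0.05), with DESeq2 33, 0 and 2, with RLE scaling 186, 2 and 5, and without the haemoglobin rows 103, 1 and 4. The 3 limma fits gave 0, 0 and 0 each (1165 to 1369 genes at an unadjusted p under 0.05). Leaving out 1 library gave 0 to 331 genes, 0 to 3 members, with Ltbp4 added without the DMM library of M05, and 0 to 7 pathway genes. The pathway counts under alternatives were added after seeing the data. Signs turned only in fits that leave out a library: in DMM against sham the log2 fold changes ranged from -0.09 to 0.16 for Tgfb1, -0.18 to 0.45 for Ltbp1, -0.31 to 0.82 for Ltbp2, -0.31 to 0.10 for Tgfbr2, -0.38 to 0.64 for Tgfbr3, -0.11 to 1.63 for Prg4, -0.68 to 0.16 for Furin, -0.25 to 0.25 for Lox, -0.02 to 1.05 for Gdf10 and -0.14 to 0.57 for Acvr1b. In M05 against M04 they ranged from -0.16 to 0.07 for Tgfb1, -0.62 to 0.11 for Tgfb3, -0.81 to 0.02 for Ltbp3 and -0.78 to 0.12 for Tgfbr1. The ratios within each mouse stayed inside their counting intervals with a prior count of 0.5 or with FPKM + 0.1. Ordered by CPM instead of FPKM, 5 members changed place, with Tgfb3 moving from place 5 to 9. Depth limits Tgfb2 most, with 25 to 99 counts a library.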
